A study of Homo sapiens with 12 samples.

Results

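The 8 genes described here are GOLGA8A, GOLGA8B, MALAT1, NEAT1, NKTR, LUC7L3, CCNL1 and CCNL2, whose RNAs are often kept in the nucleus or hold retained introns. They were taken by gene symbol from the 58302 genes of the deposited table and occupied 9 entries, because the symbol MALAT1 occurs on both the long gene and a short element inside it. The genes were selected on values of these same libraries, so their values are given as a description with no test. All 9 entries were among the 16027 genes that passed the filter on low values.

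RNA was sequenced from TPC1, a cell line derived from a papillary thyroid carcinoma, and from 3 Dicer1 (+/-) lines made from it, named D11, WB1 and TD5. The parental line is wild type for Dicer1, which encodes the RNase III enzyme that cuts microRNA precursors. Each Dicer1 (+/-) line was grown from a single cell after transient transfection of a CRISPR/Cas9 plasmid with a guide against Dicer1, so each is 1 clone and the effect of the genotype cannot be told apart from other properties of that clone. All lines were kept in RPMI medium with serum and antibiotics, and no line received a further treatment. There were 3 libraries per line, and the labels do not say whether they came from separate cultures, so the spread between them may be technical. Values are scaled reads, that is reads per gene after the authors scaled every library to 20000000.

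MALAT1 and NEAT1 are long noncoding RNAs made from neighbouring loci. MALAT1 collects in nuclear speckles, bodies rich in splicing factors, and NEAT1 is the scaffold of paraspeckles, which hold RNA-binding proteins and certain edited RNAs in the nucleus. MALAT1 and the long form of NEAT1 have no poly(A) tail. Their 3′ ends form a triple helix and are released when RNase P cuts off a tRNA-like RNA, whereas the short form of NEAT1 is polyadenylated. CCNL1 and CCNL2 encode the L cyclins, partners of the CDK11 kinases in pre-mRNA splicing. LUC7L3 encodes a U1 snRNP-associated splicing factor, and NKTR a large cyclophilin with an arginine-serine-rich tail. GOLGA8A and GOLGA8B belong to a family of golgin genes, named for coiled-coil proteins of the Golgi, which was multiplied on chromosome 15. Transcripts of the L cyclins, LUC7L3, NKTR and the GOLGA8 genes commonly keep introns, and such transcripts tend to stay in the nucleus.

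The tRNA-like RNAs at the 3′ ends are shown because poly(A) selection, used to make these libraries, acts on RNA with a tail. They are annotated in GRCh38 at chr11:65506117-65506173 for MALAT1 and at chr11:65445541-65445598 for NEAT1, both on the plus strand. Capitals mark the match to GGTTCNANNCC, the core of the internal promoter box that tRNA genes share.
mascRNA of MALAT1: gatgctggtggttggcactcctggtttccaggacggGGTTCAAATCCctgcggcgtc
tRNA-like RNA of NEAT1: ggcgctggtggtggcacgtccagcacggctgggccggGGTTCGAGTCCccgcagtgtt

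The mean over all 12 libraries was 3 scaled reads for the MALAT1 RNA and 0.167 for the NEAT1 RNA. Both means lay under the value that 3 reads give in any library whose depth could be estimated, which was 3.46 to 4.73 scaled reads. Single libraries had 0 to 8 scaled reads of the MALAT1 RNA, with WB1 replicate 2 the highest. The level of these small RNAs was therefore too low to be compared between lines, and the MALAT1 and NEAT1 values below are those of the long RNAs.

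Conserved windows near the start of NEAT1 have entries of their own and are shown because they give values for short stretches inside NEAT1. Window 1 lies at chr11:65423273-65423392, window 2 at chr11:65423638-65423742 and window 3 at chr11:65423960-65424118, on the plus strand. These are bases 500 to 619, 865 to 969 and 1187 to 1345 counted from the first base of the gene, a stretch that the short and long forms share. The short MALAT1 element, at chr11:65502914-65503008, covers bases 5275 to 5369 of MALAT1.
NEAT1 window 1: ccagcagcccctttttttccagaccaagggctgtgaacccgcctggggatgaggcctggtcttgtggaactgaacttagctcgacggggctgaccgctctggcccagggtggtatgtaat
NEAT1 window 2: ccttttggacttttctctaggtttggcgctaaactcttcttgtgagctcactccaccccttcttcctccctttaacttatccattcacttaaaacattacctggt
NEAT1 window 3: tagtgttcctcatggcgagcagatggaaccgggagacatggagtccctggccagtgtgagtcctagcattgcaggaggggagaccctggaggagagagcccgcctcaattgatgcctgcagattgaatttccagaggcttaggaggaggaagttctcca
MALAT1 short element: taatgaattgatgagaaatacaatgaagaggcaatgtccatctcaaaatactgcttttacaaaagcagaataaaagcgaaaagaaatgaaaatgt

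GOLGA8A and GOLGA8B each hold a copy of the miR-1233 hairpin, which is shown because in both genes it fills a whole annotated intron. The hairpin is 82 bases long and the same in both copies, MIR1233-1 at chr15:34382069-34382150 and MIR1233-2 at chr15:34528290-34528371, on the minus strand of GRCh38.p14 (RefSeq). Capitals mark the first and last bases of the intron in the hairpin, and the seed, bases 2 to 8, in the mature RNAs.
MIR1233 hairpin: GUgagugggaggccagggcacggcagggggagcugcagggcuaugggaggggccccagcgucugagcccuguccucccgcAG
hsa-miR-1233-5p: aGUGGGAGgccagggcacggca
hsa-miR-1233-3p: uGAGCCCUguccucccgcag

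Both hairpin entries were listed at 0 in all 12 libraries. Mature microRNAs are too short for this kind of library, so their levels were not measured. The NEAT1 locus holds MIR612.

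NEAT1 had the most scaled reads of the 8 genes. The TPC1 libraries had 1704, 1486 and 2024 scaled reads, against 3501, 3807 and 3577 for D11, 4214, 4314 and 3426 for WB1, and 2065, 2175 and 2527 for TD5. All 9 clone libraries lay above the highest TPC1 library, with D11 and WB1 far above and TD5 just above. The means were 1738 ± 271 (SD, n = 3) in TPC1, 3628 ± 159 in D11, 3985 ± 486 in WB1 and 2256 ± 241 in TD5. The ratio of means to TPC1 was 2.09 in D11, 2.29 in WB1 and 1.30 in TD5. More RNA per cell and more cells with a high level cannot be told apart in bulk RNA.

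MALAT1 varied most between the libraries of a line. TPC1 had 701, 407 and 568 scaled reads, D11 had 854, 1216 and 946, WB1 had 1193, 1105 and 871, and TD5 had 545, 713 and 816. The D11 and WB1 libraries all lay above TPC1, whereas TD5 overlapped with it. The means were 559 ± 147 (SD, n = 3) in TPC1, 1005 ± 188 in D11, 1056 ± 166 in WB1 and 691 ± 137 in TD5, or 1.80, 1.89 and 1.24 times the TPC1 mean in the clones. The short element inside MALAT1 had 18 to 28 scaled reads in TPC1, 32 to 44 in D11, 25 to 41 in WB1 and 13 to 56 in TD5.

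Among the genes described here, CCNL1 and CCNL2 were the 2 whose libraries fell in separate ranges in all 4 lines. The share of all genes passing the filter with such separate ranges was not counted. Nothing is therefore read from this separation. For CCNL1 the values were 625, 568 and 526 in TPC1, 1161, 1371 and 1300 for D11, 994, 1132 and 957 for WB1, and 823, 762 and 902 scaled reads for TD5. For CCNL2 they were 1149, 1108 and 920 in TPC1, 1920, 1929 and 1806 for D11, 1662, 1748 and 1591 for WB1, and 1390, 1258 and 1452 for TD5. The order from highest to lowest was D11, WB1, TD5 and TPC1 for both cyclins, with no overlap between neighbours. CCNL1 averaged 573 ± 49.7 (SD, n = 3), 1277 ± 107, 1028 ± 92.2 and 829 ± 70.2 scaled reads in TPC1, D11, WB1 and TD5. CCNL2 averaged 1059 ± 122, 1885 ± 68.6, 1667 ± 78.6 and 1367 ± 99.1. The clones stood at 2.23, 1.79 and 1.45 times the TPC1 mean for CCNL1 and at 1.78, 1.57 and 1.29 times for CCNL2. The ratio of CCNL2 to CCNL1 reads was 1.85 ± 0.101 in TPC1, 1.48 ± 0.148 in D11, 1.63 ± 0.0712 in WB1 and 1.65 ± 0.0396 in TD5. Every clone library lay below every TPC1 library in this ratio. How many pairs of genes separate in this way was not counted, so nothing is read from it.

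GOLGA8A was close to constant in the parental line. It had 147, 142 and 146 scaled reads in TPC1, 300, 368 and 286 for D11, 349, 366 and 319 for WB1, and 267, 225 and 384 for TD5. GOLGA8B had 126, 107 and 105 in TPC1, 254, 299 and 229 for D11, 272, 278 and 233 for WB1, and 177, 176 and 211 for TD5. All 9 clone libraries lay above TPC1 for both genes, and TD5 replicate 3 stood apart from the other TD5 libraries for GOLGA8A. GOLGA8A averaged 145 ± 2.65 (SD, n = 3) in TPC1, 318 ± 43.9 in D11, 345 ± 23.8 in WB1 and 292 ± 82.4 in TD5. GOLGA8B averaged 113 ± 11.6, 261 ± 35.5, 261 ± 24.4 and 188 ± 19.9 scaled reads in the same lines.

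The division of reads between GOLGA8A and GOLGA8B is uncertain. Their main transcripts, lying 87286 bases apart on chromosome 15 (chr15:34378935-34437808 and chr15:34525095-34588503, minus strand), were 98.9% identical over 5275 aligned bases. Of all 100-base stretches of the GOLGA8A transcript, 53.3% occurred unchanged in a GOLGA8B transcript, and 54.4% in the other direction. The sum of both genes does not depend on that division if each shared read was counted once. How reads that match both genes were counted is not known. It was 273, 249 and 251 scaled reads in TPC1, 554, 667 and 515 for D11, 621, 644 and 552 for WB1, and 444, 401 and 595 for TD5. The summed means were 2.25, 2.35 and 1.86 times that of TPC1 in D11, WB1 and TD5, and no clone library overlapped with the parental ones.

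NKTR and LUC7L3 differed least. NKTR had 851, 745 and 770 scaled reads in TPC1, 1014, 1385 and 1089 for D11, 956, 1268 and 878 for WB1, and 687, 728 and 758 for TD5. LUC7L3 had 1096, 1019 and 1140 in TPC1, 1316, 1706 and 1436 for D11, 1275, 1600 and 1254 for WB1, and 1141, 1060 and 1175 for TD5. For both genes D11 and WB1 lay above TPC1 in every library, and TD5 overlapped with TPC1. NKTR averaged 789 ± 55.4 (SD, n = 3), 1163 ± 196, 1034 ± 206 and 724 ± 35.6 scaled reads in TPC1, D11, WB1 and TD5. LUC7L3 averaged 1085 ± 61.2, 1486 ± 199.8, 1376 ± 194 and 1125 ± 59.1.

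**Figure D1:**
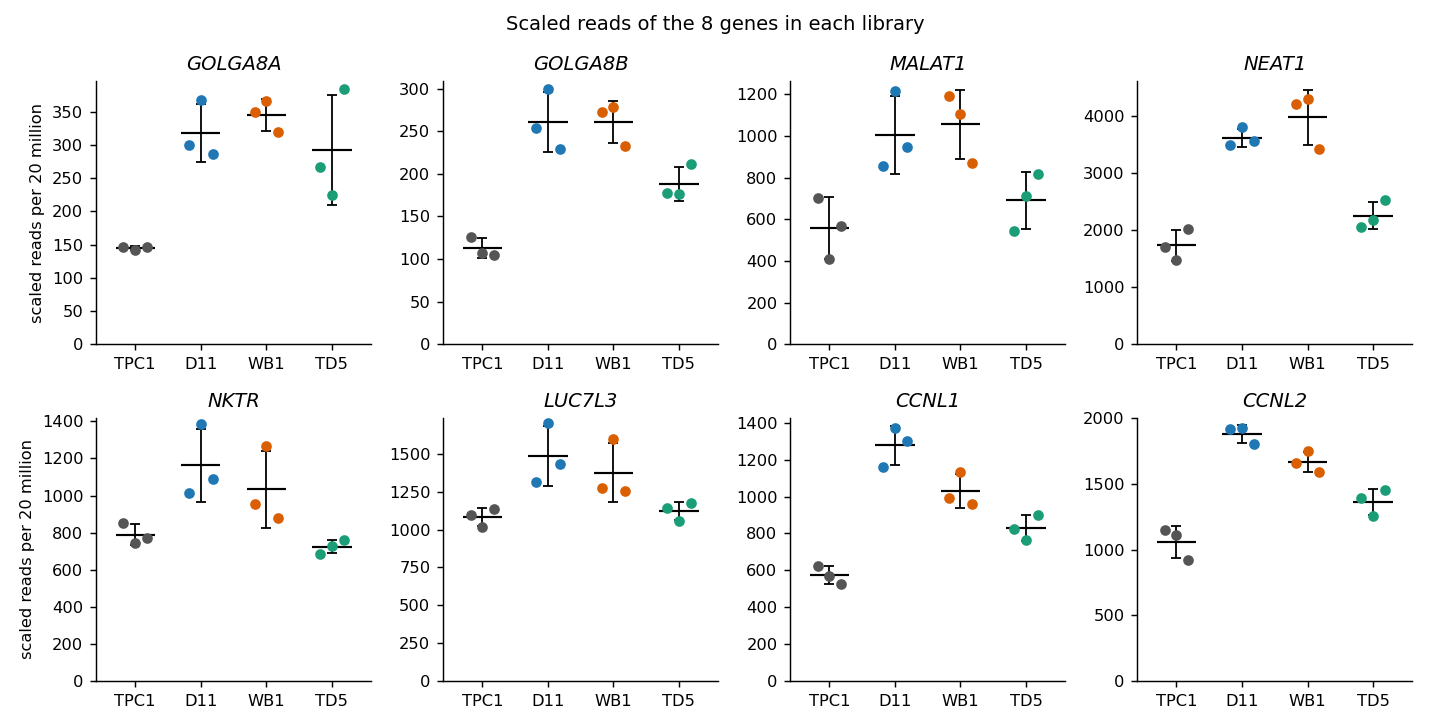
Scaled reads per 20000000 (vertical axes, starting at 0) of the 8 genes in TPC1 and the clones D11, WB1 and TD5. Each point is 1 library, the long bar the mean and the error bar the SD of 3 libraries. D11 and WB1 lie above every TPC1 library in all 8 panels, and TD5 overlaps with TPC1 for MALAT1, NKTR and LUC7L3.

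Levels per length put the genes in another order than reads. In TPC1 the level per kilobase of exon and per 1000000 reads was 7.73 for CCNL2, 6.66 for LUC7L3, 3.81 for NEAT1, 3.28 for CCNL1, 2.68 for MALAT1, 2.28 for NKTR, 0.991 for GOLGA8A and 0.723 for GOLGA8B. The NEAT1 gene is 22767 bases long, and the annotated exons of NKTR cover 17309 bases. Windows 1, 2 and 3 near the start of NEAT1 stood at 42.2, 75.5 and 77 per kilobase and per 1000000 reads in TPC1. The reads of NEAT1 were thus not spread evenly over its length. Its place in this order therefore depends on the length used, here that of the whole gene. The libraries were made by poly(A) selection, and MALAT1 and the long form of NEAT1 have no poly(A) tail. How much of each RNA was captured is not known, so this is not an order of abundance in the cell. In D11 the level of CCNL2 was 13.8 and that of NEAT1 7.96, and in WB1 they were 12.2 and 8.74.

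Differences from TPC1 were read on the log2(value per 1000000 + 1) scale from a limma fit across all tested genes. A gene counted as called when it differed by 1.5-fold or more with an adjusted p (Benjamini-Hochberg) under 0.05. In D11, 6 of the 8 genes were called higher, where 2.89% of all tested genes were called higher and 1.95% lower. WB1 also had 6 called higher, with 3.39% of all genes called higher and 1.59% lower. TD5 had 2, GOLGA8A and GOLGA8B, with 1.12% called higher and 1.48% lower. None of the 8 was called lower in any clone. All 3 comparisons use the same TPC1 libraries. The median log2 difference of the 8 genes was 0.93 in D11, 0.87 in WB1 and 0.37 in TD5, beside 0.05, 0.06 and 0.00 over all tested genes. Because the genes were chosen for values of this kind, the counts describe the choice and nothing is read from them.

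Among the genes called in D11 and WB1, the largest log2 differences were those of CCNL1 in D11, 1.13 (SE 0.09), and of NEAT1 in WB1, 1.19 (SE 0.10). NEAT1 stood at 1.06 in D11. GOLGA8A stood at 1.03 and 1.14 (SE 0.14) and GOLGA8B at 1.08 and 1.08 (SE 0.12) in D11 and WB1. MALAT1 had 0.84 and 0.92 with the widest error (SE 0.18), and CCNL2 0.83 and 0.65 (SE 0.08). The L cyclins thus differed more in D11, and both long noncoding RNAs and the GOLGA8 genes at least as much in WB1. NKTR, at 0.54 in D11 and 0.37 in WB1 (SE 0.12), and LUC7L3, at 0.44 and 0.33 (SE 0.10), stayed under 1.5-fold.

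TD5 gave smaller differences from TPC1 for all 8 genes than either other clone. They were 0.89 for GOLGA8A, 0.65 for GOLGA8B, 0.52 for CCNL1, 0.38 for NEAT1, 0.37 for CCNL2, 0.31 for MALAT1, 0.05 for LUC7L3 and -0.12 for NKTR, with the errors given above. Without TD5 replicate 3 the difference of GOLGA8A was 0.68 and that of GOLGA8B 0.57, and GOLGA8B was no longer called. With a pseudocount of 4 GOLGA8B stood at 0.48 and was not called either. For MALAT1 the TD5 value ran from 0.11 without TPC1 replicate 2 to 0.49 without TPC1 replicate 1.

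**Figure D2:**
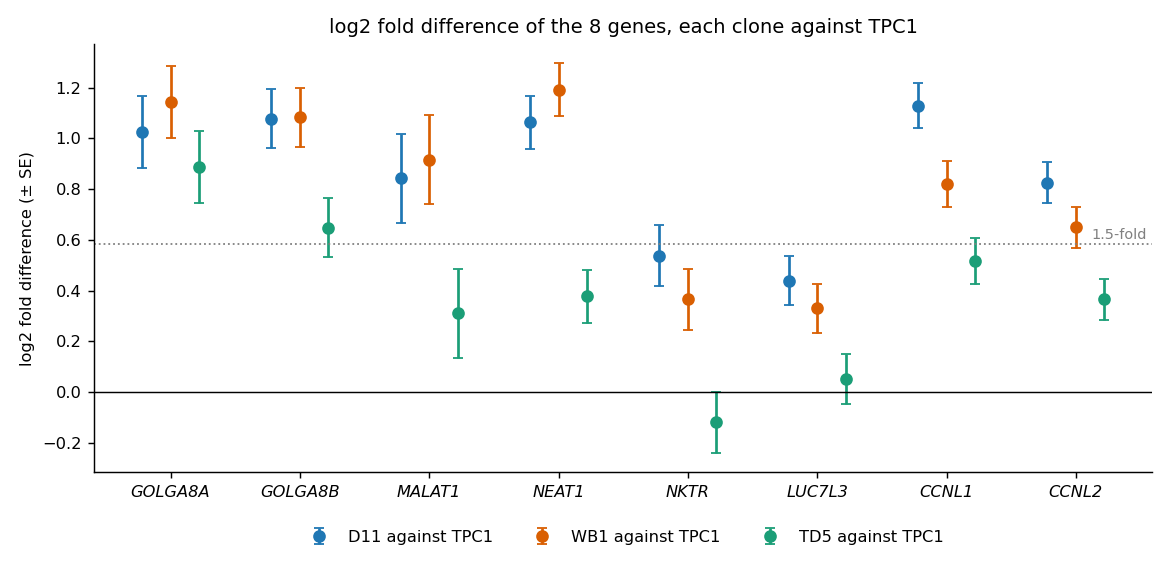
log2 fold difference from TPC1 (vertical axis) of the 8 genes in D11, WB1 and TD5, with the standard error of the limma fit as bars. The dotted line marks 1.5-fold. In D11 and WB1, 6 genes lie above it, and TD5 gives the lowest point of every gene.

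The choice of library and of correction moved some of these values. Without TPC1 replicate 1 or D11 replicate 1, NKTR reached 0.59 and 0.63 in D11 and was called. CCNL2 in WB1 was not called without TPC1 replicate 3, at 0.55, nor after a correction of each library for transcript length, at 0.58. A correction for the GC content of each gene lowered all of the 8 genes but CCNL2 in D11, and most the 3 with the lowest GC content. After it MALAT1 stood at 0.67 in D11, NEAT1 at 0.94, GOLGA8A at 0.98, GOLGA8B at 1.03 and CCNL2 at 0.84. NKTR, with 36.5% GC, stood at 0.25 in D11 and 0.14 in WB1 after it, LUC7L3, with 37.4%, at 0.17 and 0.11, and CCNL1, with 35.2%, at 0.81 and 0.58, where the WB1 value was no longer called. GOLGA8A, GOLGA8B, MALAT1 and NEAT1 were called in D11 and WB1 under every alternative that was run.

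The position of whole groups of libraries was counted as well. All 3 libraries lay above every TPC1 library for 8 of the 8 genes in D11, for 8 in WB1 and for 5 in TD5, beside 29.5%, 26.5% and 11.9% of all tested genes. All 9 clone libraries lay above TPC1 for the 5 genes GOLGA8A, GOLGA8B, NEAT1, CCNL1 and CCNL2, beside 5.17% of all tested genes.

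Between the clones, TD5 was lower than D11 for 8 of 8 genes, with a median log2 difference of -0.50 beside -0.05 over all genes. The called genes were NEAT1 at -0.69, NKTR at -0.66 and CCNL1 at -0.61, where 3.99% of all tested genes were called in either direction. TD5 was also lower than WB1 for 8 of 8, with a median of -0.37, and the called genes were NEAT1 at -0.81 and MALAT1 at -0.60, with 2.33% of all genes called. WB1 and D11 differed little, with 4 genes higher and 4 lower in WB1, none called and 2.85% of all genes called. The largest of those differences was -0.31 for CCNL1, and that of NEAT1 was 0.13. These comparisons share libraries with each other and with those against TPC1.

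Within each line the 8 genes tended to be high in the same library. D11 replicate 2 was the highest D11 library for 8 of 8 genes and TD5 replicate 3 the highest TD5 library for 8 of 8. WB1 replicate 2 was highest for 7 and WB1 replicate 3 lowest for 8, and TPC1 replicate 1 was highest for 6. The median deviation from the mean of the line was 0.20 on the log2 scale in D11 replicate 2, 0.14 in TD5 replicate 3, 0.11 in WB1 replicate 2 and -0.14 in WB1 replicate 3. Over the 28 pairs of these genes, the correlation across all 12 libraries ran from 0.54 to 0.98 with a median of 0.85, and that of the deviations within lines from -0.14 to 0.90 with a median of 0.58. All pairs share the same libraries, so these values are a description. The share of all tested genes that were highest in these libraries was not counted, nor were other gene pairs correlated. Nothing here is therefore read as particular to the 8 genes.

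**Figure D3:**
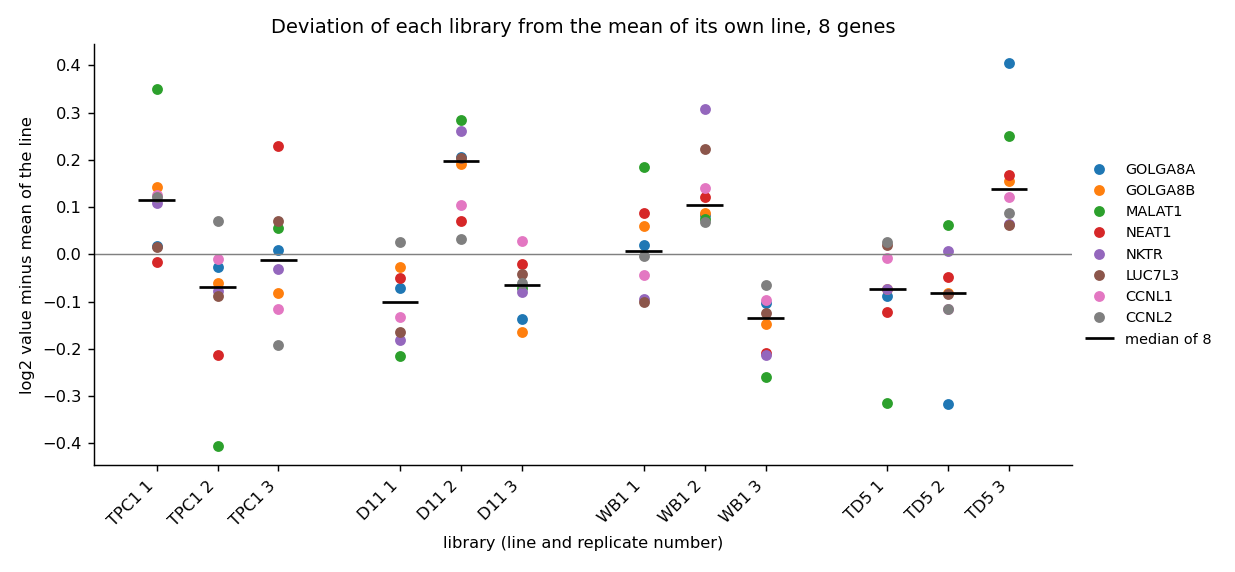
log2 value of each of the 8 genes minus the mean of its own line (vertical axis) in each of the 12 libraries. Each colour is 1 gene and the black bar the median of the 8. The points of D11 replicate 2 and TD5 replicate 3 lie above 0 for all 8 genes and those of WB1 replicate 3 below 0.

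The share of reads from mitochondrially encoded genes was higher in the clones, where 8 of the 8 genes in D11 and WB1 and 7 in TD5 had a positive difference from TPC1. It was 1.33% to 1.45% in TPC1, 2.07% to 2.17% in D11, 1.90% to 2.22% in WB1 and 1.67% to 1.95% in TD5. When the libraries were scaled without mitochondrially encoded genes, 6, 6 and 2 of the 8 genes were called higher, as before. Of all tested genes 3.13%, 3.57% and 1.15% were called higher under that scaling. Because the mitochondrial share was small, this scaling could move the values only slightly. Whether the difference in that share bears on the 8 genes was not tested. RNAs without a poly(A) tail made up 4.25 to 4.60 per 1000000 in TPC1, 4.45 to 5.35 in D11, 4.60 to 9.24 in WB1, with WB1 replicate 2 the highest, and 3.75 to 4.80 in TD5. Their part in the values of MALAT1 and NEAT1 was not tested.

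The windows in NEAT1 lay above TPC1 in every D11 and WB1 library, whereas in TD5 windows 1 and 3 overlapped with TPC1 and the whole gene did not. Window 3 had 233, 218 and 284 scaled reads in TPC1, 486, 509 and 488 for D11, 567, 558 and 469 for WB1, and 276, 269 and 282 for TD5. Window 2 had 135 to 173, 312 to 355, 309 to 401 and 193 to 227, and window 1 had 88 to 120, 185 to 223, 183 to 253 and 95 to 154 in the same lines. Windows 1, 2 and 3 held 5.59%, 9.17% and 13.3% as many reads as the whole gene over all libraries. The log2 differences from TPC1 were 0.85, 0.99 and 0.96 for D11, 1.00, 1.10 and 1.06 for WB1, and 0.26, 0.37 and 0.17 for TD5 for windows 1, 2 and 3. They lie inside NEAT1 and in both of its forms, so they neither replicate the gene nor tell its forms apart. Whether a read counted for a window was also counted for NEAT1 is not known. The ratio of NEAT1 to MALAT1 reads was 3.22 ± 0.681 (SD, n = 3) in TPC1, 3.67 ± 0.494 in D11, 3.79 ± 0.224 in WB1 and 3.31 ± 0.414 for TD5, and the ranges of the clones all overlapped with that of TPC1.

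**Figure D4:**
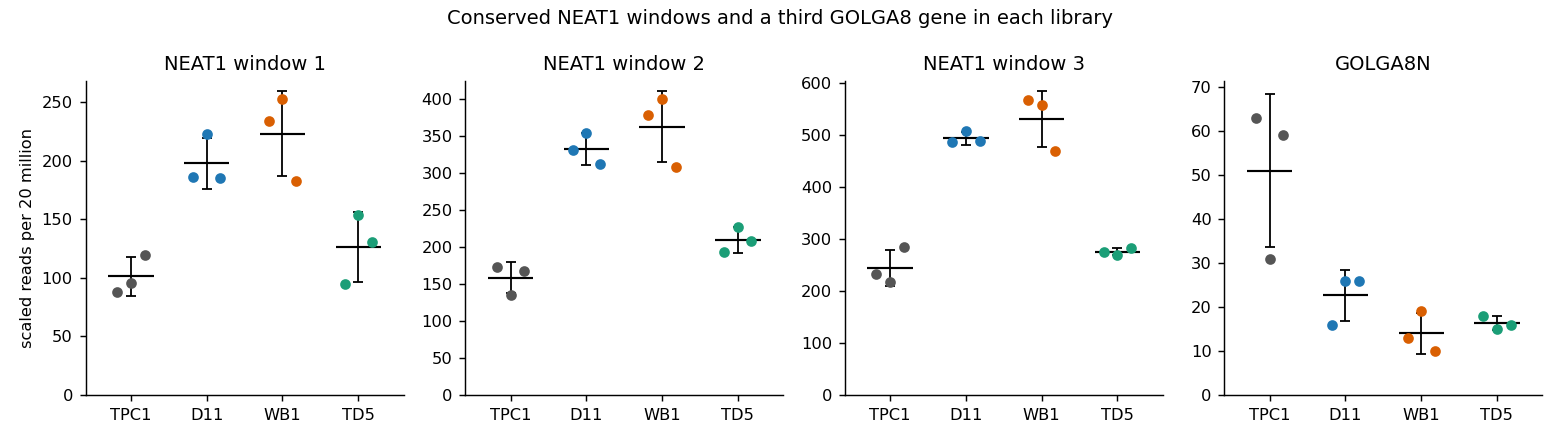
Scaled reads per 20000000 (vertical axes, starting at 0) of the conserved windows near the start of NEAT1 and of GOLGA8N in each library. Points are libraries, long bars means and error bars the SD of 3 libraries. The windows are higher in D11 and WB1, windows 1 and 3 of TD5 overlap with TPC1, and GOLGA8N is lower in all clones.

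GOLGA8N was the only other gene of the GOLGA8 family that passed the filter, and it moved the other way. It had 63, 31 and 59 scaled reads in TPC1, 16, 26 and 26 for D11, 13, 19 and 10 for WB1, and 18, 15 and 16 for TD5. All clone libraries lay below TPC1. Its log2 difference was -0.71 in D11 (limma, adjusted p = 0.00617), -1.04 for WB1 (adjusted p = 0.000463) and -0.93 for TD5 (adjusted p = 0.00209). The D11 call was lost without TPC1 replicate 1, at -0.58, and with a pseudocount of 4 it was called in no clone, at -0.34, -0.47 and -0.43. Its transcript was 88.4% identical to those of GOLGA8A and GOLGA8B over the aligned part and shared 0% of its 100-base stretches with them. GOLGA8H, under the filter, had 3 to 10 scaled reads in TPC1 and 9 to 24 in the clones.

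The genes beside and over the members were read for comparison. FRMD8 and LTBP3, which lie near MALAT1 and NEAT1 on chromosome 11, were not called in any clone. Their log2 differences lay between -0.33 and 0.03. SEC22C, which overlaps NKTR, had 0.34, 0.28 and 0.19 in D11, WB1 and TD5 and was not called. AC006059.1, an antisense gene over NKTR, had 0.15, 0.20 and -0.03 with 34.7 scaled reads on average in TPC1. MALAT1 and NEAT1 lie 52099 bases apart.

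Of 30 other transcripts known to keep introns, 8 were called higher in D11 and 5 in WB1, and limma called none lower. Of all tested genes 2.89% and 3.39% were called higher in these clones. The list was chosen with earlier results of these data known, so it gives no independent support for the 8 genes. The median log2 difference of the 30 was 0.43 in D11, 0.35 in WB1 and 0.15 in TD5. Over all tested genes the median was 0.05, 0.06 and 0.00. After the GC correction the median of the 30 was 0.26 in D11 and 0.20 in WB1, with 6 and 4 called. ANKRD36 and ANKRD36C, ankyrin repeat genes in near-identical copies between which reads may be divided uncertainly, stood at 0.83 and 0.84 in D11 (limma, adjusted p = 0.000176 and 0.000514). In WB1 they stood at 0.68 and 0.65 (adjusted p = 0.000813 and 0.0032). ANKRD10 had 961, 921 and 810 scaled reads in TPC1 and 1464, 1597 and 1483 in WB1, a log2 difference of 0.74 (adjusted p = 1.4e-05). ANKRD10 was also called in D11, at 0.62. That call was lost without TPC1 replicate 3, at 0.55, and under median-of-ratios scaling and the GC correction, at 0.57 and 0.58. The ANKRD36C call in WB1 was likewise lost without that library, at 0.52. In WB1 neither ANKRD36 nor ANKRD36C was called after the GC correction, at 0.53 and 0.47, or after the length correction, at 0.58 and 0.55. With a pseudocount of 4 neither was called in D11, at 0.57 for both, or in WB1, at 0.46 and 0.43. RSRP1, an arginine-serine-rich protein gene, reached 0.68 in D11 (adjusted p = 0.00016) and 0.53 in WB1, under 1.5-fold except without TPC1 replicate 1, at 0.60. In TD5 none of the 30 was called by limma, and 10 had an unadjusted p under 0.05, all higher. Of all 16027 tested genes, 1906 had an adjusted p under 0.05 in TD5, in either direction and without a minimum fold. Without WB1 replicate 3 or TPC1 replicate 1 the number of the 30 called in WB1 was 8, and without TPC1 replicate 3 it was 3. After the length correction it was 1, and with a pseudocount of 4 the counts were 4 in D11 and 2 in WB1.

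KCNQ1OT1, a nuclear noncoding RNA that silences the imprinted genes around it in cis, differed between the clones. It had 350, 286 and 265 scaled reads in TPC1, 437, 555 and 411 for D11, 406, 480 and 336 for WB1, and 204, 228 and 227 for TD5. The log2 difference was 0.60 in D11 (limma, adjusted p = 0.0032), a call that was lost without TPC1 replicate 2, TPC1 replicate 3 or D11 replicate 2, at 0.58, 0.52 and 0.48. It was also lost under median-of-ratios scaling, at 0.55, with a pseudocount of 4, at 0.52, and after the length correction, at 0.36. Of the 8 other nuclear noncoding RNAs listed 5 were tested, and their median was 0.42 in D11, 0.30 in WB1 and 0.02 in TD5.

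Few protein partners of these RNAs were called. Of 16 paraspeckle proteins none was called, and SFPQ, NONO and PSPC1, the core proteins that bind NEAT1, had log2 differences of 0.22, -0.11 and -0.02 in D11 and 0.03, -0.15 and 0.10 in WB1. The median of the 16 was 0.06 in D11, 0.01 in WB1 and 0.08 for TD5, and it turned negative in D11 and WB1 under median-of-ratios scaling. Among 24 SR and nuclear speckle proteins 1 was called, the splicing regulator SRSF10 in D11 at 0.63 (limma, adjusted p = 0.00054), a call lost without TPC1 replicate 2 or D11 replicate 3, at 0.57 and 0.58, and under median-of-ratios scaling and the length correction, at 0.57 and 0.52. An unadjusted p under 0.05 was found by limma for 16 of the 24 in D11, all higher. Of all 16027 tested genes, 5329 had an adjusted p under 0.05 in D11, in either direction and without a minimum fold. The median of the 24 was 0.25 in D11, 0.13 in WB1 and 0.08 in TD5. After the GC correction that of D11 was 0.07.

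CDK11A and CDK11B, the kinases that L cyclins bind, lay between -0.07 and 0.08 in all clones. CLK1, a kinase of SR proteins, had 495, 485 and 360 scaled reads in TPC1, 535, 750 and 612 for D11, 637, 739 and 622 for WB1, and 407, 328 and 424 for TD5. It stood at 0.48 in D11 and 0.57 in WB1, under 1.5-fold, and CLK4 stood at 0.34 and 0.45. After the GC correction CLK1 stood at 0.18 and 0.33 and CLK4 at 0.04 and 0.22. Without D11 replicate 1 the CLK1 value in D11 was 0.59, and when TPC1 replicate 1 or 2 or WB1 replicate 1 or 3 was left out that in WB1 was 0.59 to 0.64, past 1.5-fold. None of 16 splicing and cyclin L kinases was called. LUC7L and LUC7L2, the relatives of LUC7L3, lay between -0.08 and 0.09, and PPIG, the cyclophilin most like NKTR, between -0.10 and 0.14.

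Other lists gave few calls. GORAB, a golgin, was called higher in D11 at 0.75 (limma, adjusted p = 0.00117) and in WB1 at 0.64 (adjusted p = 0.00326), the only call among 16 golgins, and in WB1 it was not called once TPC1 replicate 3 or WB1 replicate 2 was left out, at 0.53 and 0.54. After the GC correction GORAB was called in neither, at 0.47 and 0.42, nor were SRSF10 and KCNQ1OT1 in D11, at 0.33 and 0.47. With a pseudocount of 4 GORAB was again called in neither, at 0.56 in D11 and 0.48 in WB1. After the length correction it was not called in WB1, at 0.53. RPP25, an RNase P subunit with 4 to 37 scaled reads, was called lower in WB1 at -0.78 (limma, adjusted p = 0.00324), the only call among 12 genes of 3′ end processing. With a pseudocount of 4 this call was lost, at -0.30. Without TPC1 replicate 1 RPP25 was also called in D11 and TD5, at -0.59 and -0.73. Medians of these lists were 0.17, 0.17 and -0.06 for golgins and -0.09, -0.06 and -0.04 for 3′ end processing in D11, WB1 and TD5. None was called among 10 U1 snRNP and LUC7 genes, 19 of nuclear RNA decay, 16 cyclophilins, 18 of mRNA export and 3 tested of 13 RNAs without a poly(A) tail, and their medians lay between -0.05 and 0.31. Over these 5 lists with the paraspeckle and kinase lists, 98 genes were tested, and limma gave an unadjusted p under 0.05 for 44 in D11, 44 in WB1 and 16 in TD5. Over all 16027 tested genes it gave an adjusted p under 0.05, without a minimum fold, for 5329, 4956 and 1906. The share of all genes with such an unadjusted p was not counted, so nothing is read from the counts in lists.

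**Figure D5:**
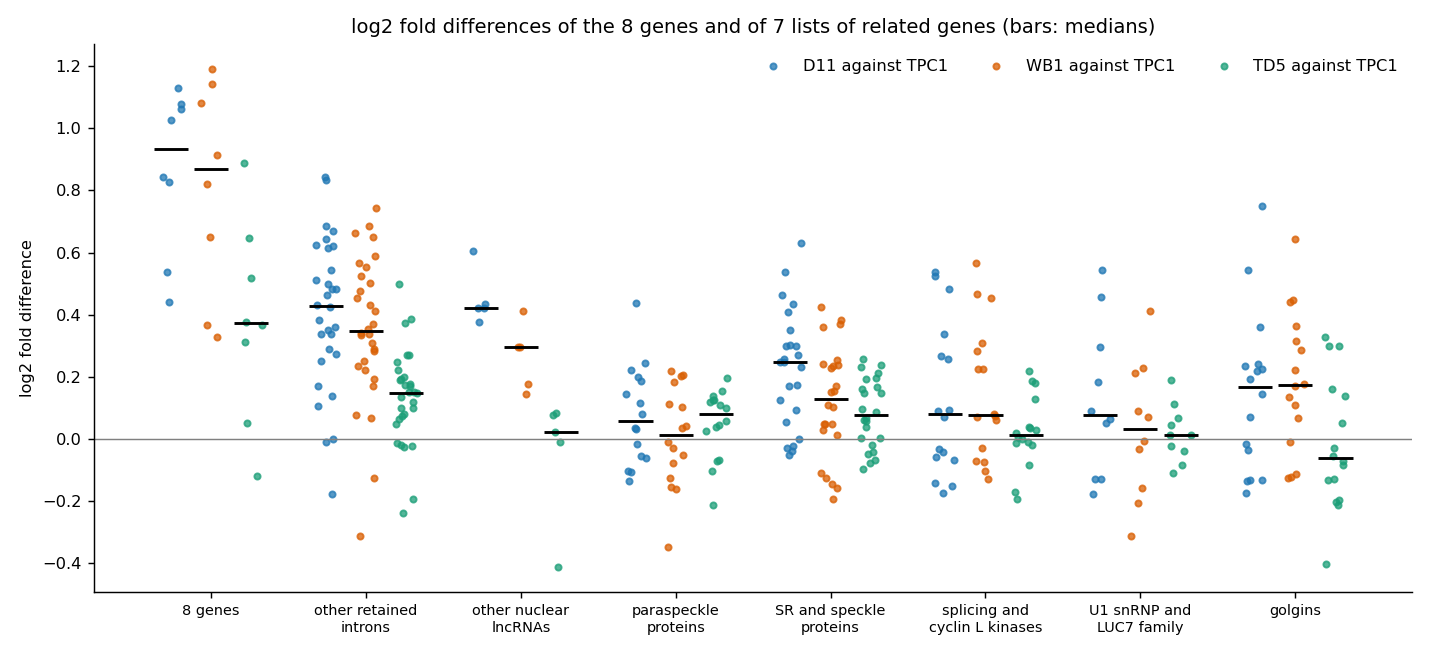
log2 fold difference from TPC1 (vertical axis) of the 8 genes and of the genes of 7 lists in D11, WB1 and TD5. Each point is 1 gene and each bar a median. The medians of the 8 genes are 0.93, 0.87 and 0.37, those of other transcripts with retained introns 0.43, 0.35 and 0.15, and those of the paraspeckle proteins at most 0.08.

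The genes whose profile over the 12 libraries was most like the mean of the 8 genes were sought among 12232 other genes averaging at least 5 per 1000000. They were ANKRD36, KIF2A, AC015813.1, AL390728.4 and ZNF83, with Pearson r of 0.977, 0.976, 0.975, 0.975 and 0.973. AC015813.1 had a mean of 93 scaled reads in TPC1 and 228, 213 and 132 in D11, WB1 and TD5. KIF2A, a microtubule-depolymerizing kinesin, went from 1195 to 1572, 1520 and 1323, a smaller ratio with a like profile. NEAT1 was most like MIR222HG, the host transcript of miR-221 and miR-222, with r of 0.964 and means of 43.3 in TPC1 and 182, 175 and 75 in the clones. MALAT1 was most like SMC2, MRE11 and UPF3A, with r of 0.963, 0.959 and 0.955, and the GOLGA8A and GOLGA8B sum most like MED4, EHBP1 and RAD21, with 0.966, 0.966 and 0.949. All points share their libraries, so these likenesses have no test.

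Promoter sequences are shown for the L cyclins, whose order of lines was the same, and for the MALAT1 start with a TATAAA match. Each runs from 250 bases before to 50 bases after an annotated start (RefSeq, GRCh38.p14). They lie at chr3:157160098-157160397 for CCNL1 and chr1:1399286-1399585 for CCNL2, both on the minus strand, and at chr11:65498795-65499094 on the plus strand for MALAT1. Capitals mark matches on either strand to CCAAT, to GGGCGG, the TGACGTCA element or the TATAAA box.
CCNL1 promoter: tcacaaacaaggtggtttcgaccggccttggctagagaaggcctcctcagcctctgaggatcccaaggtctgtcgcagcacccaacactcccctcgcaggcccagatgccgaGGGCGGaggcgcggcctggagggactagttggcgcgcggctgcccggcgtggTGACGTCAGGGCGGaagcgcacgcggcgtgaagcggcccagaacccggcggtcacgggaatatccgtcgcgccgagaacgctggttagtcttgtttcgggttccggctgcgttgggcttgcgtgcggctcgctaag
CCNL2 promoter: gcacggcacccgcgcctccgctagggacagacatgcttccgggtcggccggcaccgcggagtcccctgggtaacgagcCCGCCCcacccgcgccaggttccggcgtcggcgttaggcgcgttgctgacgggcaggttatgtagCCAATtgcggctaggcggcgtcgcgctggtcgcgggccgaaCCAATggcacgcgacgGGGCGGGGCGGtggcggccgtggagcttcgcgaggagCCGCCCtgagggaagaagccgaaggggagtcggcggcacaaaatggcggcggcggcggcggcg
MALAT1 promoter: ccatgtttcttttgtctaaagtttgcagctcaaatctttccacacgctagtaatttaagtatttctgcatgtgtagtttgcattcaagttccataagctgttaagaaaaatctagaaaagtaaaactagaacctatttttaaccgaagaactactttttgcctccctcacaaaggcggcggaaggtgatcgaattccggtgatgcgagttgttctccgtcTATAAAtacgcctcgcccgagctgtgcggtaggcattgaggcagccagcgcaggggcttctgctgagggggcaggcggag

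The tables held 7 promoters for 6 of the 8 genes, GOLGA8A and NEAT1 being the ones not matched. TGACGTCA, the element bound by CREB and ATF factors, occurred in 1 of the 7, that of CCNL1, and in 1.85% of 35116 promoters. CCAAT occurred in 3 of the 7 and in 34.6% of all, GGGCGG in 4 and in 45%, and TATAAA in 1 and in 11.5%. In the CCNL2 promoter a pair of GGGCGG matches overlaps. A match is a run of letters and no evidence of binding.

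The libraries held 12700000 to 17330000 reads in the 11 for which the step between values allowed an estimate, and sums of scaled reads were 20009833 to 20014191. Mean DICER1 was 1197 scaled reads in TPC1, 1040 in D11, 878 in WB1 and 693 in TD5, so the clone with the lowest DICER1 had the smallest differences of the 8 genes, which was not tested. Of the thyroid markers, PAX8 had 7248 to 9879, FOXE1 93 to 316 and TG 11 to 27 scaled reads, while TSHR, SLC5A5 and NKX2-1 were listed at 0 in every library. Of the epithelial markers, KRT8 had 10280 to 16274, KRT18 5237 to 7775 and KRT7 209 to 308, while KRT19, EPCAM and CDH1 had at most 6. Of markers of other cells, PTPRC, CD3E, PECAM1 and COL3A1 had at most 7, COL1A1 48 to 97 and the macrophage marker CD68 921 to 1514.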

How the data were processed

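The RNA-seq libraries, 3 each of TPC1 and of its Dicer1 (+/-) clones D11, TD5 and WB1, were grouped by their titles. Per the paper's methods and the submitters' processing notes, the authors made TruSeq Stranded mRNA libraries, mapped paired-end reads with STAR 2.5.3a to GRCh38, counted genes of Ensembl release 90 with HTSeq 0.9.1 and scaled counts to 20000000 aligned reads. Strand and overlap settings of the counting are not given in the sources used here. The deposited values are whole numbers after scaling, so they were treated as a score and not as counts. The authors' edgeR method needs raw counts and was not used. From the gaps between the values, 11 libraries held 12700000 to 17330000 reads. In TPC1 replicate 1, which had no gaps, depth could not be estimated. Floors of 3 reads cover counting error only.

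After scaling to the sum of each library, log2(value per 1000000 + 1) was modelled with limma 3.58.1 (R 4.3.3, mean-variance trend), with a mean for each line. A gene was tested where 3 or more libraries had 1 per 1000000. Benjamini-Hochberg adjustment ran over all 16027 genes tested, and the pipeline was tested on simulated data. The 8 genes and the 12 companion lists were chosen with earlier results of these data known, and p-values are given for companion genes only. Some genes stand in more than 1 list. Named companion genes were SFPQ, NONO, PSPC1, CLK1, CLK4, CDK11A, CDK11B, LUC7L, LUC7L2, PPIG, neighbouring and overlapping genes, GOLGA8 genes that passed the filter, and from each list up to 4 genes called in any clone, by the size of the difference. Some genes of these lists are not reported here. GOLGA8H and the marker ranges were named after their values were seen. Likeness was Pearson r over 12 libraries.

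Deviations of same-numbered libraries from the means of their lines had r from -0.193 to 0.0948 between the clones and TPC1. Between D11 and TD5 r was 0.107, 0.172 and 0.348. Between D11 and WB1 it was -0.0726, 0.106 and -0.188, and between WB1 and TD5 it was -0.0682, -0.218 and -0.273. The labels mention no pairing of same-numbered libraries. Alternatives were the filter, the pseudocount, the scaling, the libraries fitted, a replicate block, corrections for GC content and transcript length and leaving out each library. The block with a correction was added after seeing the data. Positions, exon lengths and sequences came from GENCODE release 44 and RefSeq tables. Python 3.11.15, numpy 2.4.6, pandas 2.3.3, Biopython 1.88 and matplotlib 3.10.9 were used.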

Additional observations from a re-analysis of the deposited data

Results flagged for a closer look

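NKTR lay on opposite sides of the TPC1 mean, with every D11 and every WB1 library above it and every TD5 library below it, where its log2 difference from TPC1 was -0.12. That contrast between the clones is given untested, because NKTR was selected on these libraries.

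Among the companion genes named by the rule, 3 were called between clones, that is with an adjusted p under 0.05 and 1.5-fold or more. Other named genes, ANKRD36 and RSRP1 among them, had an adjusted p under 0.05 but differed by less than 1.5-fold. KCNQ1OT1 was lower in TD5 than in D11 by a log2 difference of -1.01 (adjusted p = 5.9e-05) and than in WB1 by -0.82 (adjusted p = 0.00083). CLK1 was lower in TD5 than in D11 by -0.68 (adjusted p = 0.0019) and than in WB1 by -0.76 (adjusted p = 0.0016). ANKRD36C was lower in TD5 than in D11 by -0.64 (adjusted p = 0.0045). TAF1D, another transcript with retained introns, named after its values were seen, was lower in TD5 than in D11 by -0.64 (adjusted p = 0.00047) and was not called after the GC or length correction, at -0.40 and -0.56. In each comparison the 3 TD5 libraries lay below the 3 of the other clone. The CLK1 and ANKRD36C calls against D11 were lost without D11 replicate 2, at -0.55 and -0.56, and without TD5 replicate 2, at -0.57 and -0.54. After the GC correction CLK1 stood at -0.42 against D11 and -0.57 against WB1 and was called in neither, and ANKRD36C against D11 was called neither after it, at -0.46, nor after the length correction, at -0.55, nor with a pseudocount of 4, at -0.45. KCNQ1OT1 against WB1 was not called after the length correction, at -0.54.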

How the results depend on the processing

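The median log2 difference of the 8 genes kept its sign under every alternative that gives one. When each library was left out in turn it ran from 0.87 to 1.03 in D11, from 0.76 to 0.99 in WB1 and from 0.31 to 0.46 in TD5. In WB1 the GC correction moved it to 0.70, with and without the replicate block. The replicate block gave 772 calls in D11, 799 in WB1 and 409 in TD5 over all genes, beside 775, 799 and 417 without it, and 638 beside 640 for TD5 against D11, and it changed no call of a gene named here. Leaving out libraries gave 664 to 921 calls in D11, 672 to 920 in WB1 and 341 to 589 in TD5. A pseudocount of 0.1 gave 1188 in D11 and 1233 in WB1, a pseudocount of 4 gave 295, 339 and 180, and calls without a minimum fold numbered 5329, 4956 and 1906 in D11, WB1 and TD5. Without TD5 replicate 2, 300 genes were called higher in TD5 beside 179 with it. Median-of-ratios scaling changed the higher and lower calls from 463 and 312 to 340 and 365 in D11 and from 544 and 255 to 418 and 331 in WB1. The median of the paraspeckle proteins in D11 and WB1 became -8.194e-05 and -0.0508 under that scaling, -0.103 and -0.0928 under the GC correction and -0.0182 and -0.0715 under the length correction, also with the block. The median of the SR and nuclear speckle proteins in WB1 became -0.0142 under the GC correction. The causes were not tested. Of 2962 recomputed values for 119 results, 2826 kept their direction and their side of the threshold or moved by less than 1 SD. Many of these log2 differences could not move. Leaving out a library of a line outside the comparison, adding the replicate block or changing the filter leaves them the same. The count of 2826 is therefore no measure of how stable the results are. Values of the small RNAs at the 3′ ends, at most 8 scaled reads in any library, are limited by depth.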
